A study of Homo sapiens with 12 samples.

Results

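Transcription factors that drive epithelial-mesenchymal transition were followed in an osteosarcoma line and in cells labelled as its CD99 transfectants. The group holds 7 genes (SNAI1, SNAI2, ZEB1, ZEB2, TCF3, TCF4 and TWIST2) of the 19775 with a probe set that names them alone, and 35 such probe sets of 54613. A probe set is a set of short probes that together report 1 transcript or a few. Where a gene had several, the one with the highest mean over the 12 arrays stood for it. Only the 5 genes whose standing probe set passed filters on signal and on spread were tested. SNAI2 is given by its levels and by a fit without filters, and TWIST2 by its levels.

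SaOS-2 is an established human osteosarcoma line, and its arrays are those labelled as untransfected parental cells. Sa/CD99 stands for 2 clones of that line, wt22 and wt36, stably transfected with CD99, a small glycoprotein of the cell surface. They were made by calcium phosphate transfection and neomycin selection, and no group holds cells with an empty vector. Total RNA was taken under basal culture (day 0) and after 7 or 14 days in an osteogenic medium low in serum, with beta-glycerophosphate and ascorbic acid added, which drives osteoblast differentiation. A change from day 0 is therefore one of medium and time together, which cannot be told apart. Each of the 6 groups has 2 arrays, which for Sa/CD99 are 1 array of each clone. Values are log2 signals, and their precision is limited by there being few arrays.

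These factors are repressors and partners of repressors. SNAI1 and SNAI2 (snail and slug) are zinc finger proteins, and ZEB1 and ZEB2 carry zinc finger clusters and a homeodomain. They bind E-boxes, short DNA motifs, in the promoters of epithelial genes such as CDH1, which encodes E-cadherin, and lower their transcription. TCF3 and TCF4 are E proteins, basic helix-loop-helix factors that dimerise with each other and with tissue-restricted partners such as TWIST2. The ID proteins bind E proteins but not DNA and so hold them in inactive dimers. TCF4 here is that E protein and not TCF7L2, the Wnt effector that also goes by that name. Osteoblasts are mesenchymal cells, in which these factors are known to act on differentiation genes rather than on a change from an epithelial state.

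The E-box letters that the zinc finger factors favour, CAGGTG or their reverse complement CACCTG, were looked for in the RefSeq promoter windows of GRCh38.p14, on both strands, from 250 bases before to 50 after a gene's start. A window of this kind holds them in 7231 of 35116 cases (20.6%). Of the 7 factors, 5 were in the promoter table, and only ZEB1 among them had a window with the letters, in 2 of 7 windows. The 10 windows of TCF4 held none, nor did the 1 window each of ZEB2, TCF3 and TWIST2 or the 2 of CDH2. OCLN, which encodes the tight junction protein occludin, had them in 2 of 2 windows and CTBP1, a corepressor, in 1 of 3. The other genes looked at, CD99, VIM, FN1, TCF12, ID1, SMAD2, SMAD4, HDAC1 and GSK3B, had them in no window. The window of ZEB1 at chr10:31318167-31318466 and that of OCLN at chr5:69492297-69492596, both on the plus strand, are shown because they hold the letters in a member and in an epithelial gene that was tested here; capitals mark the letters, 57 bases before the start in ZEB1 and 33 in OCLN. A match describes the sequence and is not a site shown to be bound.
ZEB1: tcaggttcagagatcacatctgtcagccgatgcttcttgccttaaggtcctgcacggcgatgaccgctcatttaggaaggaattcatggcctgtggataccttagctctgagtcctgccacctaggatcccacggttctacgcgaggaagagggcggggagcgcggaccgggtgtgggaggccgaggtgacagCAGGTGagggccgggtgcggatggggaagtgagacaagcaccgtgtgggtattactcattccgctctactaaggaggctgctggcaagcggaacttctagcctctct
OCLN: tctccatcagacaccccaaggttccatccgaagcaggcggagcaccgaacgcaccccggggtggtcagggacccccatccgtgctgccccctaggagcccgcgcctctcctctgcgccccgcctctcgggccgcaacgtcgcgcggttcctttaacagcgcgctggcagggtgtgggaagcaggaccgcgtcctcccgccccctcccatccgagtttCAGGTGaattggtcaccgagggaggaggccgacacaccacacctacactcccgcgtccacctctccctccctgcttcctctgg

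The label was checked on CD99. Probe set 201028_s_at read 11.26 to 11.88 on the 6 parental arrays and 6.67 to 8.88 on those labelled Sa/CD99, which was lower by 4.60, 4.17 and 3.23 (SE 0.42) at days 0, 7 and 14 and opposite to the label. Probe set 201029_s_at differed by 0.03, 0.07 and 0.05. The study also checked CD99 by real-time PCR in these cells, data not analysed here. The phrase "arrays labelled Sa/CD99" is therefore meant throughout wherever a direction between the lines is given. Parental pairs differed by an SD of 0.12 to 0.14 and clones by 0.39 to 0.42, and since no label tells if a parental pair came from separate cultures, the p-values may rest on technical spread. Of 29 epithelial genes 22 were at or under the filter level of log2 6.64 (a signal of 100) on all arrays, against 3 of 23 mesenchymal and 1 of 8 osteoblast genes. All 6 endothelial and 4 leukocyte markers were under it. Of 6 skeletal muscle markers 3 were under it throughout, and their summed level was 9.14 to 9.19 in SaOS-2 and 8.83 to 10.38 in Sa/CD99 at day 0, then 8.31 to 8.66 and 8.47 to 8.82 later, whose part in the results was not tested. That level is a filter and not a detection limit.

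Calls needed a 1.5-fold change or more with an adjusted p no larger than 0.05. SNAI1 and TCF4 were called lower on arrays labelled Sa/CD99 at days 0 and 14, and TCF4 at day 7 as well. No member was called higher there. That is 2, 1 and 2 of the 5 tested members lower, where 0.978%, 1.28% and 1.48% of the 6644 tested genes were lower and 0.181%, 0.557% and 0.181% higher. The median difference of the 5 was -0.10, -0.30 and -0.17, beside 0.01, 0.02 and 0.00 over all tested genes. With 5 genes, these shares describe the members and carry no test. In bulk RNA, fewer cells with a transcript and less of it per cell cannot be told apart.

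**Figure D1:**
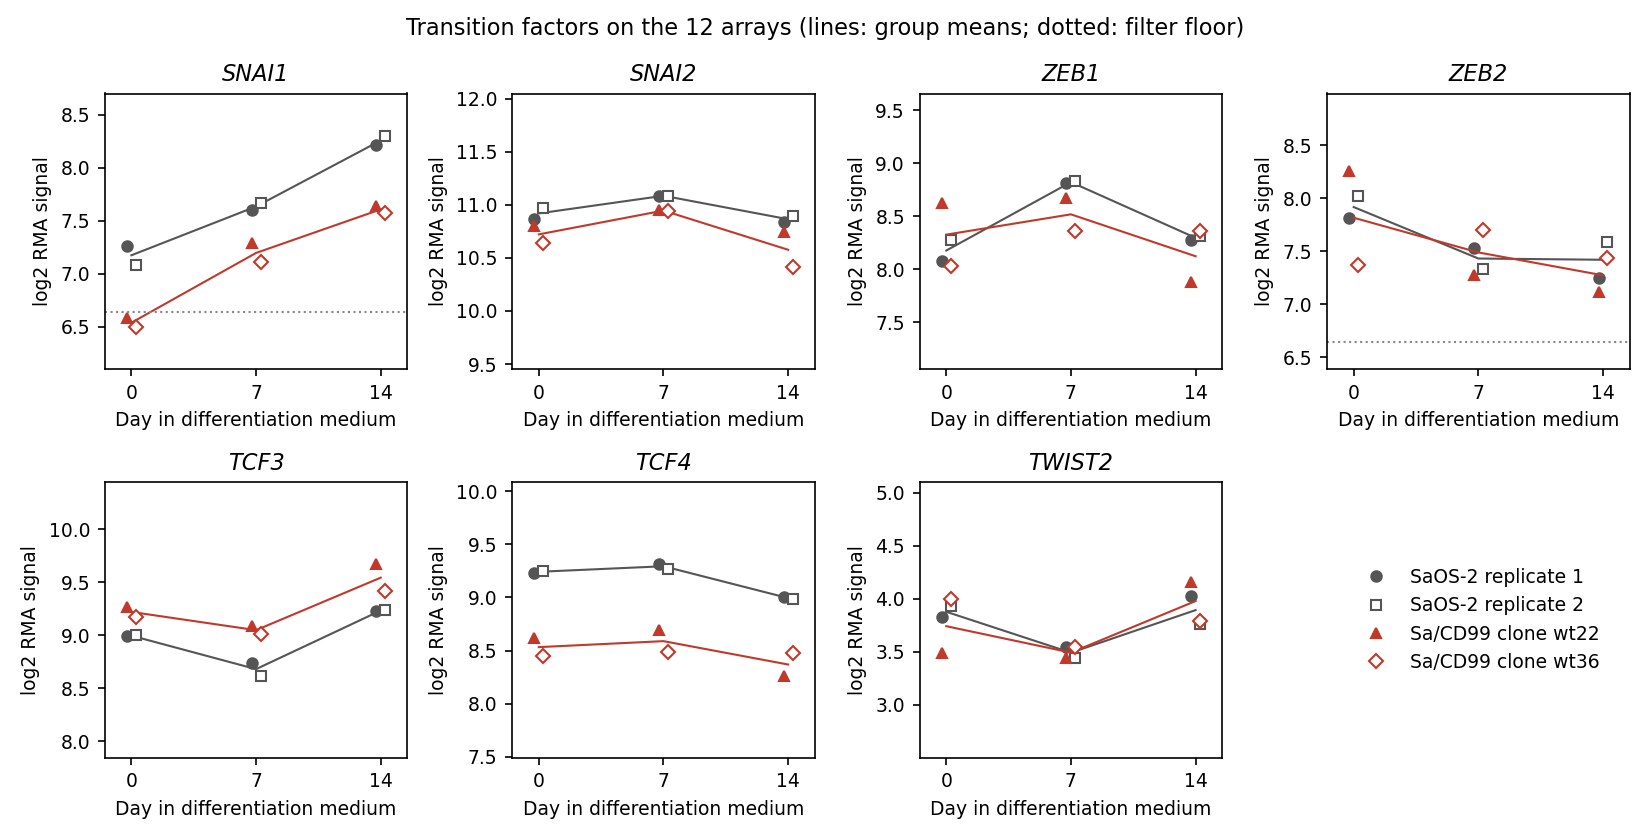
Log2 signal (y axis) of the standing probe set of each of the 7 genes against day in differentiation medium (x axis), 1 point per array, parental SaOS-2 and arrays labelled Sa/CD99 shown apart. The filter level of 6.64 is dotted only in panels whose range includes it, those of SNAI1 and ZEB2. SNAI1 climbed with day in both lines, TCF4 kept its gap between lines, and TWIST2 lay under the level throughout.

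SNAI1, a zinc finger repressor known in bone for acting on RUNX2, had 1 probe set (219480_at). Parental arrays read 7.26 and 7.09 at day 0, 7.60 and 7.67 at day 7, and 8.21 and 8.30 at day 14. Arrays of clones wt22 and wt36 read 6.58 and 6.50, then 7.29 and 7.11, then 7.64 and 7.57. Every parental array was above both clone arrays of its day, and both clone arrays of day 0 lay under the filter level. The difference was -0.64 at day 0 (SE 0.10, 1.55-fold, adjusted p = 0.0200) and -0.65 at day 14 (1.57-fold, adjusted p = 0.0197). At day 7 it was -0.44 (95% confidence interval -0.67 to -0.20, adjusted p = 0.0624) and was not called. Both calls lie close to the thresholds. Leaving out 1 array lost the day 0 call in 7 of 12 fits, with differences of -0.72 to -0.55. These were the fits without any 1 of the 6 parental arrays or without the day 0 array of wt36 (adjusted p = 0.0506 to 0.234). It lost the day 14 call in 4 of 12, those without a parental array of day 7 or 14, with -0.69 to -0.61 over all 12. Fits to the arrays of 1 day alone gave adjusted p = 0.179 at day 0 and 0.150 at day 14, and a further quantile normalization put day 0 at -0.56, under 1.5-fold.

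Over time SNAI1 rose in both lines. At day 14 it was above day 0 by 1.08 in SaOS-2 (2.12-fold, adjusted p = 0.000252) and by 1.07 on arrays labelled Sa/CD99 (2.10-fold, adjusted p = 0.000225). Taken by number, the rise was 0.95 and 1.21 in the parental arrays and 1.06 in wt22 and 1.08 in wt36. At day 7 the change was 0.46 in SaOS-2 (adjusted p = 0.00839), short of 1.5-fold, and 0.66 in Sa/CD99 (1.58-fold, adjusted p = 0.00185). The last call was lost without the day 7 array of wt22 (0.57) and after quantile normalization (0.56). The rise did not differ detectably between lines: the difference was 0.20 at day 7 (95% confidence interval -0.13 to 0.53) and -0.01 at day 14 (-0.35 to 0.32), both adjusted p = 0.999. These intervals leave room for a difference in either direction. All day comparisons of a line share its day 0 arrays.

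Day changes were common among all genes, and SNAI1 and ZEB1 have to be read against that. In SaOS-2 10.9% of tested genes rose and 9.44% fell by day 7, and 7.42% rose and 7.31% fell by day 14. On arrays labelled Sa/CD99 8.22% rose and 7.59% fell by day 7, and 7.42% rose and 12.3% fell by day 14. Of the 5 tested members 1 rose in each of these 4 comparisons and none fell: ZEB1 in SaOS-2 at day 7 and SNAI1 in the other 3. No gene at all, members included, was called in the interaction of line and day, a share of 0% at day 7 and 0% at day 14.

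**Figure D2:**
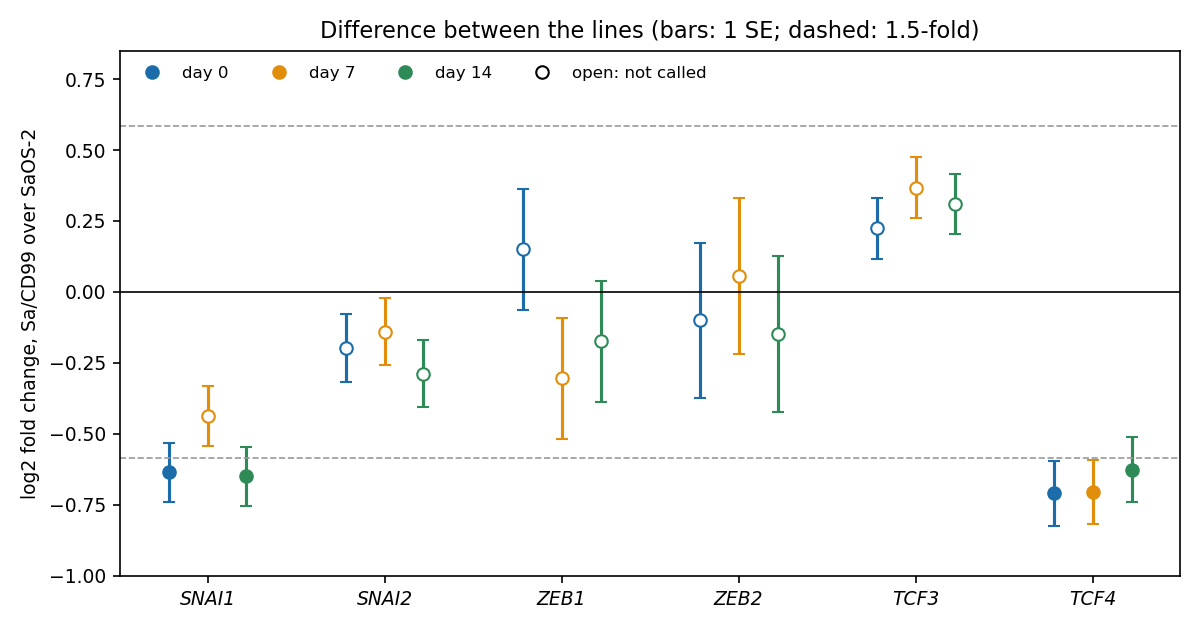
Log2 difference of arrays labelled Sa/CD99 minus SaOS-2 (y axis, points with bars of 1 SE) for 6 of the factors at days 0, 7 and 14 (x axis), filled points called and dashed lines at 1.5-fold, SNAI2 taken from the fit without filters. TCF4 is filled on all 3 days (-0.71, -0.71 and -0.63), SNAI1 at days 0 and 14, and TCF3 is above 0 on each day.

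SNAI2, the close relative of SNAI1, had 1 probe set (213139_at) and did not pass the filter on spread. It read 10.84 to 11.09 on the parental arrays and 10.41 to 10.95 on those labelled Sa/CD99. In the fit of all probe sets it differed between lines by -0.20, -0.14 and -0.29 (SE 0.12, adjusted p = 0.687, 0.753 and 0.426), and by day by 0.17 and -0.06 in SaOS-2 and 0.22 and -0.15 in Sa/CD99. Its lowest value was the day 14 array of wt36.

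ZEB1 had 4 probe sets, 2 of them tested. The standing one, 212764_at, read 8.08 and 8.28 at day 0, 8.81 and 8.83 at day 7 and 8.28 and 8.31 at day 14 in SaOS-2. In wt22 and wt36 it read 8.62 and 8.03, then 8.68 and 8.36, then 7.88 and 8.37. The parental pair was higher at day 7 than on either other day, while the clones spread widely and overlapped the parental range at days 0 and 14. ZEB1 rose by 0.64 in SaOS-2 at day 7 (SE 0.21, 1.56-fold, adjusted p = 0.0374), against 0.19 in Sa/CD99 (adjusted p = 0.512). The difference between these changes was -0.45 with adjusted p = 0.999, so the rise was not shown to differ between lines. The call was lost in 6 of 12 fits that left out 1 array, those without any 1 of the parental arrays (adjusted p = 0.0578 to 0.178), and with no filter (adjusted p = 0.0612). The other tested probe set, 212758_s_at, changed by 0.13 (adjusted p = 0.648) in the same comparison. A further one, 210875_s_at, moved by 1.11 (adjusted p = 0.00298 in the fit of all probe sets) but lay under the filter level on 10 arrays, and 239952_at read 3.46 to 3.96. Probe sets of ZEB1 thus disagreed on the size of its day 7 change. Between lines it differed by 0.15 at day 0 (95% confidence interval -0.33 to 0.63), -0.30 at day 7 (-0.78 to 0.18) and -0.17 at day 14 (-0.65 to 0.31).

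ZEB2 had 5 probe sets and 1 tested, 203603_s_at. The other 4 (228333_at, 235593_at, 233031_at and 233033_at) were under the filter level on all arrays. SaOS-2 read 7.81 and 8.02, 7.53 and 7.33, and 7.25 and 7.59 at the 3 days. Sa/CD99 read 8.26 in wt22 and 7.37 in wt36 at day 0, 7.28 and 7.70 at day 7, and 7.11 and 7.43 at day 14. The clones lay on either side of the parental pair at day 0, wt36 being below wt22 by 0.89. From there ZEB2 changed by -0.99 and -1.15 in wt22 at days 7 and 14 and by 0.33 and 0.06 in wt36. No comparison called it: the lines differed by -0.10 (95% confidence interval -0.72 to 0.52), 0.06 (-0.56 to 0.68) and -0.15 (-0.77 to 0.47), and the day changes were -0.48 and -0.50 in SaOS-2 and -0.33 and -0.54 in Sa/CD99. Without the day 0 array of wt36 the change of ZEB2 in Sa/CD99 was -0.77 at day 7 and -0.99 at day 14. Without that of wt22 it was 0.12 and -0.10. The size and sign of this change thus depended on which clone array of day 0 was kept.

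TCF3, the E protein that gives the E2A products, had 14 probe sets, of which 5 were tested and 8 lay under the filter level on all arrays. The standing one, 213811_x_at, is of the kind whose probes can also match other transcripts. SaOS-2 read 8.99 and 9.0, 8.74 and 8.62, and 9.23 and 9.24 at the 3 days. Sa/CD99 read 9.27 and 9.17, 9.09 and 9.01, and 9.67 and 9.42. The lines did not overlap on any day, and in both the lowest values were those of day 7 and the highest those of day 14. TCF3 was higher on arrays labelled Sa/CD99 by 0.22, 0.37 and 0.31 (SE 0.11, adjusted p = 0.431, 0.102 and 0.189), which was not called. All 5 tested probe sets of TCF3 were above 0 on each day, by 0.09 to 0.23, 0.25 to 0.40 and 0.15 to 0.33 (the others were 210776_x_at, 209153_s_at, 213730_x_at and 209152_s_at). Of these, 210776_x_at and 213730_x_at are of the same kind as the standing one, and probe sets of 1 gene are not independent. By day the standing one changed by -0.32 (adjusted p = 0.0405) and 0.24 (0.113) in SaOS-2 and by -0.17 (0.237) and 0.32 (0.0400) in Sa/CD99, each under 1.5-fold. Over the 5 tested probe sets the changes ran from -0.58 to -0.32 and from 0.19 to 0.43 in SaOS-2, with none called. In Sa/CD99 they ran from -0.43 to -0.13 and from 0.29 to 0.49, also with none called. Of the untested probe sets, 215260_s_at was under the filter level on 10 arrays, and 216645_at, 202648_at, 216647_at, 213809_x_at, 209151_x_at, 228052_x_at, 213731_s_at and 213732_at on all. In the fit of all probe sets 209151_x_at was called lower in SaOS-2 at day 7 (-0.61, adjusted p = 0.0407), with -0.55 in Sa/CD99 (adjusted p = 0.0650).

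TCF4 was the member called between lines on all 3 days. Of its 8 probe sets 7 were tested, and 212386_at stood for it. SaOS-2 read 9.23 and 9.25 at day 0, 9.32 and 9.27 at day 7, and 9.01 and 8.98 at day 14. In wt22 and wt36 it read 8.62 and 8.45, then 8.69 and 8.48, then 8.26 and 8.48. Every clone array was below every parental array, across days too. The difference was -0.71 (1.64-fold, adjusted p = 0.0177), -0.71 (1.63-fold, adjusted p = 0.0168) and -0.63 (1.54-fold, adjusted p = 0.0316), with SE 0.11. All 7 tested probe sets of TCF4 were below 0 on each day, by -0.84 to -0.63, -0.86 to -0.69 and -0.67 to -0.56. Of them 5, 7 and 3 were called, where 1.37%, 1.43% and 1.32% of all tested probe sets were called lower. Probe sets of 1 gene report overlapping transcripts and are not independent. Leaving out 1 array lost the call in 3 of 12 fits at day 0 (-0.80 to -0.62), 3 at day 7 (-0.81 to -0.60) and 7 at day 14 (-0.73 to -0.52). At days 0 and 7 these were the 2 parental arrays of the day and the array of wt36, and at day 14 the 6 parental arrays and the day 14 array of wt22. Fits to 1 day alone gave adjusted p = 0.158, 0.161 and 0.153, and the mean of all TCF4 probe sets gave -0.53 at day 14, under 1.5-fold.

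**Figure D3:**
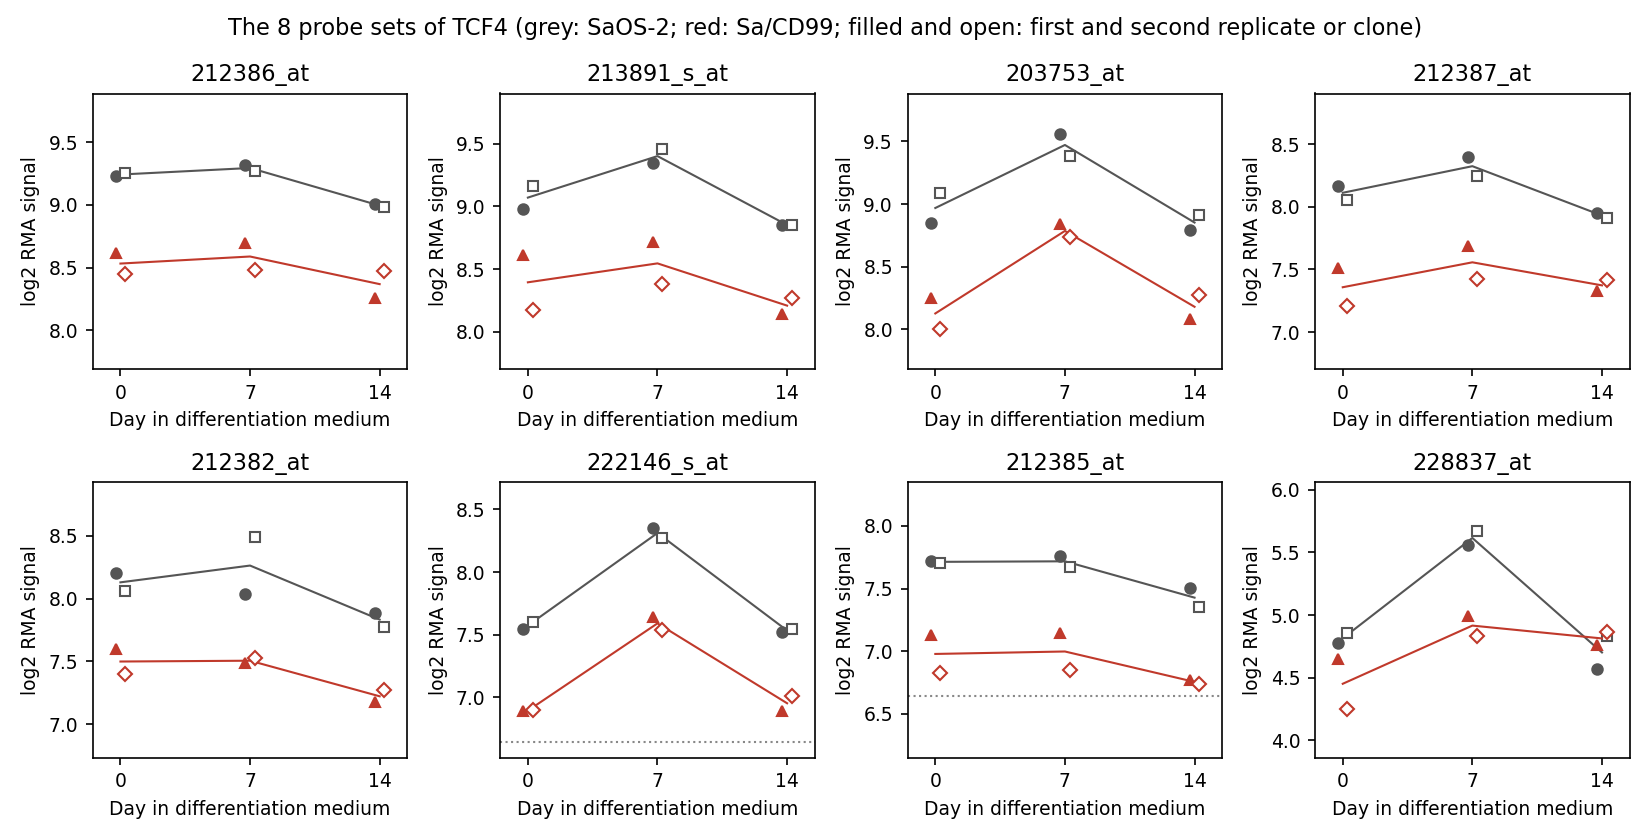
Log2 signal (y axis) of the 8 probe sets of TCF4 against day (x axis), 1 panel per probe set and 1 point per array, with the filter level dotted. Arrays labelled Sa/CD99 lie under the parental ones in the 7 tested panels, 222146_s_at and 203753_at peak at day 7 in both lines, and 228837_at lies under the level throughout.

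The day course of TCF4 depended on the probe set. The standing one changed by 0.05 and -0.25 in SaOS-2 and by 0.06 and -0.16 in Sa/CD99, with none called. Probe set 222146_s_at read 7.55 and 7.60 at day 0 and 8.35 and 8.27 at day 7 in SaOS-2, and 6.89 and 6.90 against 7.64 and 7.54 in Sa/CD99. It was back at 7.52 and 7.54, and 6.89 and 7.01, at day 14. Its day 7 rise was 0.74 (adjusted p = 0.000533) and 0.70 (adjusted p = 0.000679) in the 2 lines. Probe set 203753_at gained 0.50 (adjusted p = 0.0162, short of 1.5-fold) and 0.66 (adjusted p = 0.00588), while 212385_at moved by 0.00 and 0.02. The other tested ones, 213891_s_at, 212387_at and 212382_at, were not called. Untested 228837_at, under the filter level throughout, moved by 0.80 (adjusted p = 0.00466) and 0.46 (adjusted p = 0.0635) in the fit of all probe sets. So 1 of 7 tested TCF4 probe sets was called higher in SaOS-2, where 12.8% of all probe sets were, and 2 of 7 in Sa/CD99, where 10.4% were. Which TCF4 transcripts the probe sets report was not tested.

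TWIST2, a helix-loop-helix partner of E proteins, had 2 probe sets, both under the filter level on all 12 arrays. Probe set 229404_at read 3.44 to 4.16 and 1554163_at 3.22 to 3.97. TWIST2 was therefore not tested, and no comparison of it is reported. TWIST1, its relative outside the 7 genes, read 9.82 to 10.50 and differed between lines by 0.28, 0.21 and 0.18 in the fit of all probe sets (adjusted p = 0.775, 0.818 and 0.831).

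The 2 members called between lines lie on different chromosomes, and their chromosomes behaved differently. On chromosome 18, which carries TCF4, 23, 36 and 31 of 110 tested genes were lower on arrays labelled Sa/CD99 at the 3 days (20.9%, 32.7% and 28.2%) and none higher, against 0.643%, 0.750% and 1.03% of genes on other chromosomes. The median difference there was -0.48, -0.52 and -0.49. On chromosome 20, which carries SNAI1, 1, 0 and 4 of 176 genes were lower (0.568%, 0% and 2.27%). Of the 8 nearest genes to TCF4 with a probe set, 3 were tested. C18orf54 differed by -0.73, -1.01 and -0.79 and was called at days 7 and 14 (adjusted p = 0.0532, 0.0133 and 0.0384), with 8 arrays at or under the filter level. RAB27B, a small GTPase of secretion, differed by -0.93, -0.52 and -0.32, and TXNL1, a thioredoxin-like protein, by -0.47, -0.62 and -0.53, none of these called. STARD6, CCDC68, TCF4-AS1, LINC01416 and LINC01539 were under the filter level on all arrays. Near SNAI1 only CEBPB was tested, and it differed by -0.03, -0.12 and -0.07. B4GALT5 and RNF114 were above the filter level on all arrays but did not pass the filter on spread, and PTGIS, SLC9A8, PELATON, LINC01270 and LINC01271 were under that level on all. The part of chromosome 18 as a whole in the lower level of TCF4 was not tested.

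**Figure D4:**
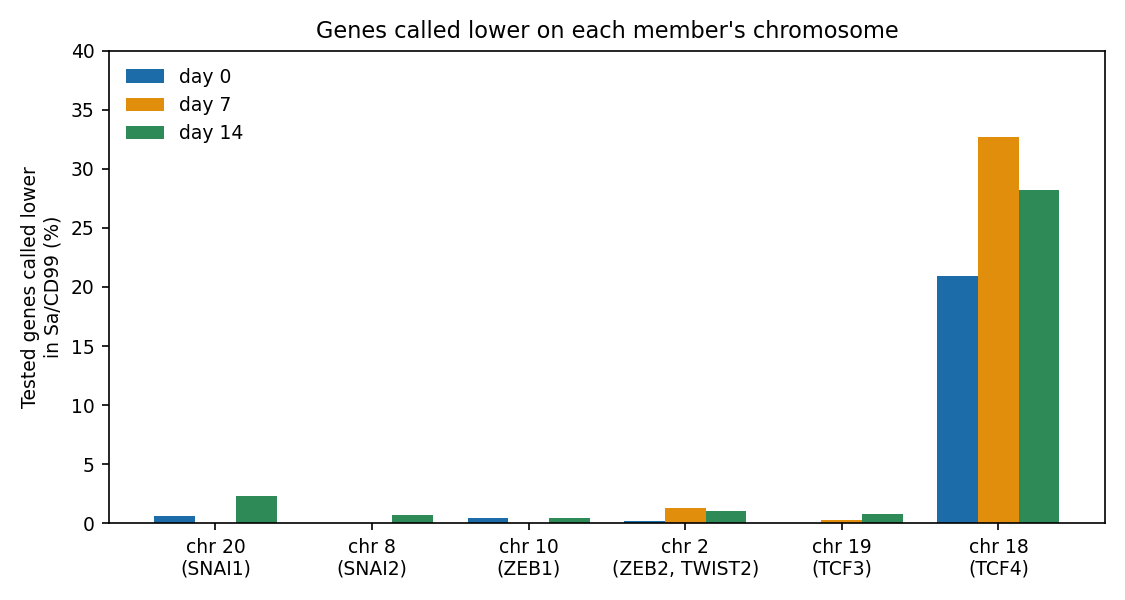
Share of tested genes called lower on arrays labelled Sa/CD99 (y axis, percent) on the chromosome of each member, tested or not (x axis), at days 0, 7 and 14. Chromosome 18, that of TCF4, reaches 32.7% at day 7, and chromosome 20, that of SNAI1, stays at or under 2.27%.

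The ID genes, whose products hold E proteins in inactive dimers, moved most with day among the pathway lists. All 4 fell in both lines at days 7 and 14. ID1 averaged 12.04 at day 0, 7.26 at day 7 and 7.88 at day 14 in SaOS-2, and 11.52, 7.41 and 7.07 on arrays labelled Sa/CD99. Its change was -4.78 and -4.15 in SaOS-2 (adjusted p = 1.46e-07 and 5.25e-07) and -4.12 and -4.45 in Sa/CD99 (SE 0.12). ID2 changed by -1.73 and -1.94, and by -1.43 and -1.84. ID3 changed by -3.67 and -3.02, and by -2.99 and -2.71. ID4 changed by -2.84 and -3.50, and by -2.82 and -3.60, its day 7 and 14 arrays being at or under the filter level. The medians of the 4 were -3.26, -3.26, -2.91 and -3.15, beside all-gene medians of -0.04, -0.03, -0.02 and -0.03. TCF12, another E protein, changed by 0.17 and -0.20, and by 0.21 and -0.15, and did not differ between lines beyond its spread (-0.23, -0.20 and -0.19, adjusted p = 0.608, 0.461 and 0.567). Between lines ID1 was lower at day 14 by 0.81 (adjusted p = 0.0129), the only call in the list.

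**Figure D5:**
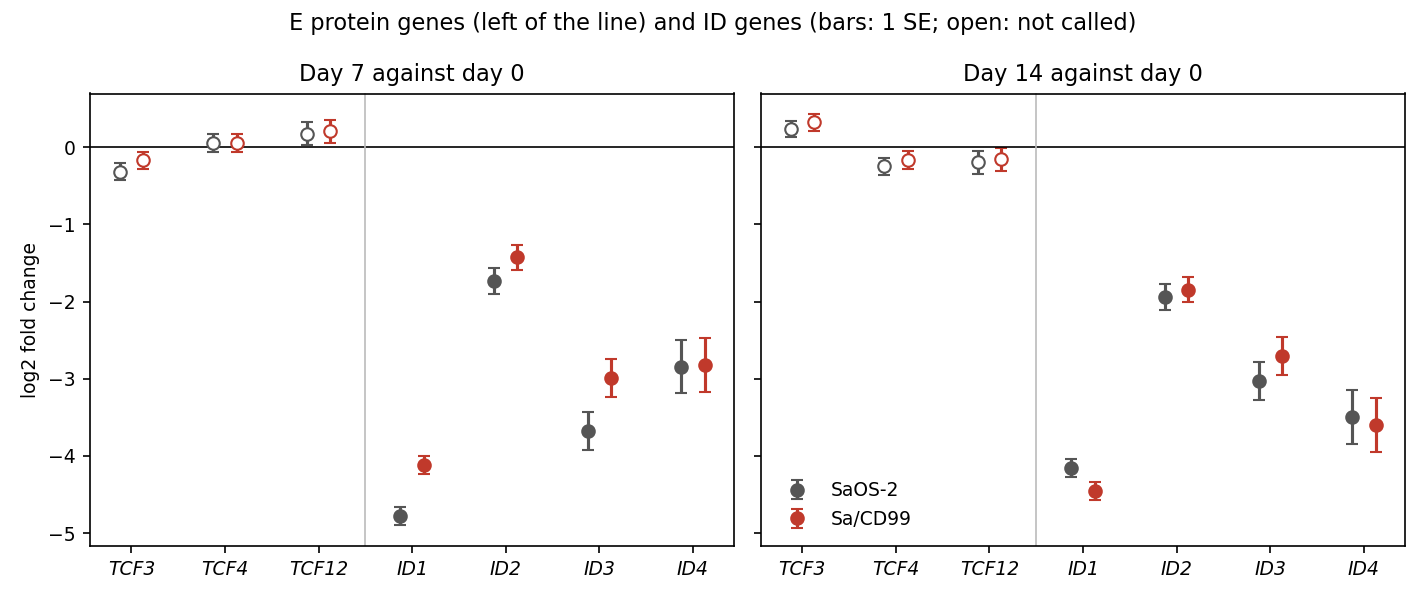
Log2 change from day 0 (y axis, points with bars of 1 SE) of the E proteins TCF3, TCF4 and TCF12 and of ID1 to ID4 at days 7 and 14 in both lines. The standing probe sets of the E proteins lie within 0.32 of 0, and the ID genes between -4.78 (ID1) and -1.43 (ID2). Other tested probe sets of TCF3 and TCF4, not drawn, moved by up to -0.58 and 0.74 in SaOS-2 at day 7.

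Among 13 other transition factors with a probe set 7 were tested, and none was called between lines. LEF1, a Wnt effector, rose in both lines at days 7 and 14, by 0.99 and 1.34 in SaOS-2 and by 1.20 and 1.5 in Sa/CD99. PRRX1, a homeobox factor of limb and bone mesenchyme, rose by 1.28 in SaOS-2 at day 14 (0.84 at day 7 was not called) and by 1.90 and 2.61 in Sa/CD99. FOXC2 fell by 0.68 in SaOS-2 at day 7. PRRX1 and FOXC2 were each at or under the filter level on 6 arrays. The clones differed widely in PRRX1, with an SD of 0.62 at day 7 and 1.08 at day 14. Of 22 corepressors and chromatin partners 14 were tested, and RCOR1, which brings histone demethylase LSD1 to repressors, was lower at day 7 (-0.61, adjusted p = 0.0284). At days 0 and 14 it differed by -0.57 and -0.55 (adjusted p = 0.0426 and 0.0454), under 1.5-fold. CTBP1 differed by -0.15, -0.11 and -0.19 (adjusted p = 0.591, 0.496 and 0.325), and HDAC1, in the fit of all probe sets, by 0.03, 0.13 and 0.03. LOXL2 and AJUBA, partners of SNAI1, fell with day in both lines at both times. The 8 tested regulators of SNAI1 stability of 13 gave no call between lines, and GSK3B, the kinase that marks SNAI1 for breakdown, differed by -0.25, -0.25 and -0.05.

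Of 22 upstream genes 16 were tested, and SMAD2 and SMAD4, the transducers of TGF-beta that raise SNAI1 and ZEB transcription, were lower on all 3 days. SMAD2 differed by -0.65, -0.79 and -0.82 (adjusted p = 0.0160, 0.00803 and 0.00666). SMAD4 differed by -0.67, -0.85 and -0.61 (adjusted p = 0.0248, 0.00919 and 0.0373). Both are on chromosome 18 with TCF4. The medians over the 16 were -0.12, -0.11 and -0.15. TGFB2, a ligand of that pathway, fell in both lines at both times (-1.54 and -2.06 in SaOS-2, -1.78 and -2.13 in Sa/CD99), and SMAD7, its inhibitor, fell in each of these comparisons too. SMAD7 was at or under the filter level on 7 arrays.

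Between lines, 0, 1 and 0 of the 5 tested epithelial genes and 2 of the 16 tested mesenchymal genes on each day were called lower. Among all tested genes the shares called lower were 0.978%, 1.28% and 1.48% at days 0, 7 and 14. Whether the factors act on the listed genes in these cells was not tested. CDH1 read 3.20 to 3.83 and was under the filter level on all arrays, as were most epithelial genes, and was not tested. Of 29 epithelial genes with a probe set 5 were tested, and OCLN was lower at day 7 (-0.71, adjusted p = 0.0252), with -0.41 and -0.30 at days 0 and 14 (adjusted p = 0.170 and 0.271). EPCAM, an epithelial adhesion molecule, differed by -0.29, -0.19 and -0.74 (adjusted p = 0.648, 0.623 and 0.118) and fell by 0.62 in Sa/CD99 at day 14 (adjusted p = 0.0410). Of 23 mesenchymal genes 16 were tested and CDH2 and THY1 were lower on all 3 days. CDH2, the N-cadherin gene, averaged 8.70, 8.36 and 8.68 in SaOS-2 and 7.44, 7.20 and 7.16 in Sa/CD99, a difference of -1.26, -1.16 and -1.53 (adjusted p = 0.0270, 0.0324 and 0.0126), and also lies on chromosome 18. THY1, a surface marker of mesenchymal stromal cells, averaged 8.37, 9.02 and 9.07 against 6.58, 6.41 and 6.52, a difference of -1.80, -2.62 and -2.55 (adjusted p = 0.00249, 0.000279 and 0.00028). It was at or under the filter level on 4 arrays, and its Sa/CD99 averages lay under that level on all 3 days. VIM, which encodes vimentin, differed by -0.14, -0.03 and 0.11 in the fit of all probe sets, and FN1, the fibronectin gene, by -0.30, -0.30 and -0.65 (adjusted p = 0.427, 0.251 and 0.0583). COL3A1, a fibrillar collagen, rose with day in both lines by 2.88 and 5.41, and by 2.85 and 4.62, and TAGLN, an actin-binding protein of contractile cells, fell in each. COL3A1 was at or under the filter level on 4 arrays, and its clones had an SD of 1.43 at day 0. Of 8 osteoblast genes 7 were tested, and ALPL, the alkaline phosphatase gene, was lower at day 0 (-0.82, adjusted p = 0.0298). No gene of any of these lists was called higher between lines.

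The genes most like each tested member over the 12 arrays were named by Pearson's r, as a description with no test, since arrays share line and day. For SNAI1 they were CDKN1C, an inhibitor of cyclin-dependent kinases (r = 0.981), TECPR2 (0.972) and LOXL1 (0.968), and CDKN1C averaged 6.74, 7.40 and 8.45 in SaOS-2 against 5.81, 6.50 and 7.46 in Sa/CD99, lower in the clones and rising with day as SNAI1 was. For TCF4 they were NTNG1 (0.981, chromosome 1), BAG5 (0.963, chromosome 14) and IER3IP1 (0.961, chromosome 18). TECPR2 and the corepressor gene RCOR1 also lie on chromosome 14, and the part of location was not tested. NTNG1 averaged 7.47, 7.79 and 7.23 in SaOS-2 against 5.80, 5.67 and 5.17. For ZEB1 they were SLC36A4 (0.967), CRBN (0.943) and ELF2 (0.930), for ZEB2 MAD2L1 (0.923), XPOT (0.920) and KBTBD6 (0.918), and for TCF3 FMC1 (0.986), MECR (0.975) and ZFP64 (0.967). Among the members themselves, TCF3 and TCF4 had r = -0.755, ZEB1 and TCF3 -0.660, and SNAI1 and ZEB2 -0.491.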

How the data were processed

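Total RNA was hybridised to Affymetrix HG-U133 Plus 2.0 arrays, 1 per sample. The log2 values were made and deposited by the authors with RMA, which corrects background, quantile-normalizes the arrays and summarises probes. The submitters' notes name affy and RMA, whose versions and the genome build are not given in the sources used here. Names came from the platform annotation updated to GRCh38.p14 RefSeq: of 54613 probe sets other than 62 controls, 41091 name 1 gene (41037 matched by gene ID), 1801 several and 11721 none. Probe sets above a signal of 100 in fewer than 4 of 12 arrays were left out (18677 stayed), then those whose interquartile range was no larger than the median of 0.219, leaving 12894, after the study's filters. Group means were fitted to all 12 arrays with limma 3.58.1 in R 4.3.3 (6 residual and 3.18 prior degrees of freedom; median SE 0.14, interactions 0.20), adjusted by Benjamini-Hochberg over all tested probe sets. The fit was also run on simulated data with known changes planted. Those data had independent arrays of equal spread, so they do not test the p-values under the wider spread between clones. Genes without a tested standing probe set were read from a fit with no filter.

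Numbers 1 and 2 name the parental arrays, and those labelled Sa/CD99 carry a clone number. The clone number pairs arrays of 1 transfected line across days (r of the clone differences between days 0.58, 0.32 and 0.63). For the parental numbers r was -0.04, 0.24 and -0.05.

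Named are all 7 members with every probe set, up to 5 called genes per list and line comparison, a fixed group (CDH1, CDH2, OCLN, EPCAM, VIM, FN1, TCF12, TWIST1, ID1, SMAD2, SMAD4, HDAC1, CTBP1 and GSK3B), the 3 genes most correlated with each tested member, the 4 nearest genes on each side of members called between lines, and CD99. Genes named for day changes outside the fixed group were chosen after their values were seen. The members and the lists were chosen with earlier results of these data known. The alternatives tried were other filters, normalizations and probe set rules, replicate blocks, fits to 1 day or line, and each array left out.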

Additional observations from a re-analysis of the deposited data

How the results depend on the processing

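The count of called members was 2, 1 and 2 between lines at days 0, 7 and 14, 1 in each day comparison and 0 in each interaction. It fell to 0 at each of days 0, 7 and 14 when only that day's arrays were fitted, to 1 at day 0 after quantile normalization, and to 1 at day 14 with the mean of a gene's probe sets. For SaOS-2 at day 7 it fell to 0 with no filter, and for Sa/CD99 at day 7 to 0 after quantile normalization. With the mean of probe sets it was also 0 for SaOS-2 at day 7. There ZEB1 had no fit, so its call was not tested. Leaving out 1 array gave counts of 0 to 2 at day 0, 0 to 1 at day 7 and 0 to 2 at day 14, 0 to 1 for SaOS-2 at day 7, 0 to 2 for Sa/CD99 at day 7 and 1 to 2 at day 14. The replicate block changed 0 of 90 results. Apart from the missing fit of ZEB1, the cause was not tested for any of these changes.

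The TCF4 interaction at day 7 turned to -0.065 with the mean of its probe sets. Signs also turned when 1 array was left out. Between lines ZEB1 ran from -0.15 to 0.44 at day 0 and from -0.42 to 0.069 at day 14, and ZEB2 from -0.55 to 0.34, -0.16 to 0.27 and -0.31 to 0.021 at the 3 days. In Sa/CD99 ZEB1 ran from -0.10 to 0.49 at day 7 and from -0.50 to 0.092 at day 14, ZEB2 from -0.77 to 0.12 at day 7 and TCF4 from -0.049 to 0.16 at day 7. For interactions the ranges were -0.29 to 0.60 (ZEB2) and -0.10 to 0.11 (TCF4) at day 7, and -0.10 to 0.075 (SNAI1), -0.49 to 0.40 (ZEB2), -0.041 to 0.21 (TCF3) and -0.024 to 0.19 (TCF4) at day 14. With 2 arrays a group, and clones spread more widely than parental pairs, small differences may have gone uncalled.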
